A study of Mus musculus with 6 samples.

Results

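The genes examined here carry the leukemia inhibitory factor (LIF) signal in the uterus: the ligand gene Lif, the receptor genes Lifr, Il6st, Osmr and Il11ra1, the kinase genes Jak1 and Jak2, the transcription factor gene Stat3 and its feedback inhibitor Socs3. They were chosen by name as 9 genes of this pathway, and every probe set that the array annotation assigned to 1 of them alone was taken. That gave 24 of 45037 probe sets and 8 of 18193 named genes. Il11ra1 had no probe set of its own in the annotation used and was not analysed here.

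RNA from whole uteri of female mice mated with C57BL/6 males, at 3.5 dpc (days post coitum) and so shortly before the embryo attaches, was hybridised to Affymetrix mouse expression arrays. The arrays held 3 Arid1a f/f samples and 3 Arid1a d/d samples. Arid1a encodes a DNA-binding subunit of the SWI/SNF chromatin remodelling complex. In Arid1a d/d mice (Pgr cre/+ Arid1a f/f) a Cre recombinase at the progesterone receptor locus Pgr deletes the floxed Arid1a alleles, and only in cells that express PGR. Arid1a f/f controls carry the same floxed alleles with no Cre, so the genotypes also differ by the Cre allele at Pgr, and its effect cannot be told apart from that of the deletion. Their age is not stated in the sources used here. The labels do not say that the samples came from separate mice, so each p-value measures only the spread between these samples.

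LIF is made by the uterine glands under estrogen and is required for embryo attachment in the mouse. It binds a pair of receptor chains, LIFR and gp130 (the product of Il6st), and the JAK kinases bound to them phosphorylate STAT3, which enters the nucleus and switches on genes that include its own inhibitor Socs3. The oncostatin M receptor chain, encoded by Osmr, and the interleukin 11 receptor chain pair with the same gp130.

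Socs3 is the feedback gene of the pathway. The stretch before its start is shown because it alone, among the windows searched, matched the letters of a STAT site. The RefSeq promoter table (GRCm38.p6) places these 250 bases before the start, 5′ to 3′ on the minus strand, at chr11:117969367-117969616. They lie within the longer span of the gene annotated there, which runs from 117966079 to 117970336 on chromosome 11. The capitals mark the match to TTCNNNGAA, which reads the same on both strands and begins 154 bases before the start.

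Socs3: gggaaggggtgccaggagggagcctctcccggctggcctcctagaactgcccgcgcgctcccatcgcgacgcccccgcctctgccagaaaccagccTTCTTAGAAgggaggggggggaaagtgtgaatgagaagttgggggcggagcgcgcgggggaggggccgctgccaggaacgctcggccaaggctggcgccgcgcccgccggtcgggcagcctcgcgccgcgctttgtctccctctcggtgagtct

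The motif TTCNNNGAA was found in the 250 bases before 2306 of 32851 starts in the table (7.02%). Among 11 starts of the 9 genes it was found at 1, that of Socs3. The windows of Lifr and Osmr, like that of Socs3, lay inside the annotated span of their gene. The bases before those spans were not searched. The stricter form TTCCNGGAA, a subset of the first motif, was found at 300 starts (0.913%) and at 0 of the 11. A match is a description of letters and not evidence of binding.

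The deposited values are normalized intensities on a linear scale, with a median of 3.12 over the table, and differences are given as log2 fold changes of Arid1a d/d over Arid1a f/f. A probe set was called past the test at an adjusted p under 0.05 (limma, two-sided, with Benjamini-Hochberg adjustment over the whole table). Of the 24 probe sets, 6 were called, against 4.77% of all probe sets. All 6 were lower in Arid1a d/d uteri, against 2.35% of the table, and 0 were higher, against 2.42%. At an unadjusted limma p under 0.05, 12 of the 24 were lower, against 9.23% of the table, and 2 higher, against 9.27%. On 11 probe sets every Arid1a d/d array lay below every Arid1a f/f array, which held for 11.5% of the table, and on 2 every Arid1a d/d array lay above, which held for 11.0%. With the brightest probe set standing for each gene, Osmr, Stat3 and Socs3 fell, 3 of 8 genes against 4.06% of all genes called lower and 7.43% called in either direction. By the same probe sets 6 of 8 genes had every Arid1a d/d array below every Arid1a f/f array, against 16.0% of all genes, and 1 of 8 had every one above, against 13.4%. Lif, Lifr, Il6st, Jak1 and Jak2 did not pass the test by that probe set. The median log2 fold change of the 8 genes was -0.51, beside -0.018 over all genes. Without Arid1a d/d replicate 2 the lower probe sets numbered 3, and they numbered 2 when replicate 3 of either genotype or replicate 2 of Arid1a f/f was left out.

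**Figure D1:**
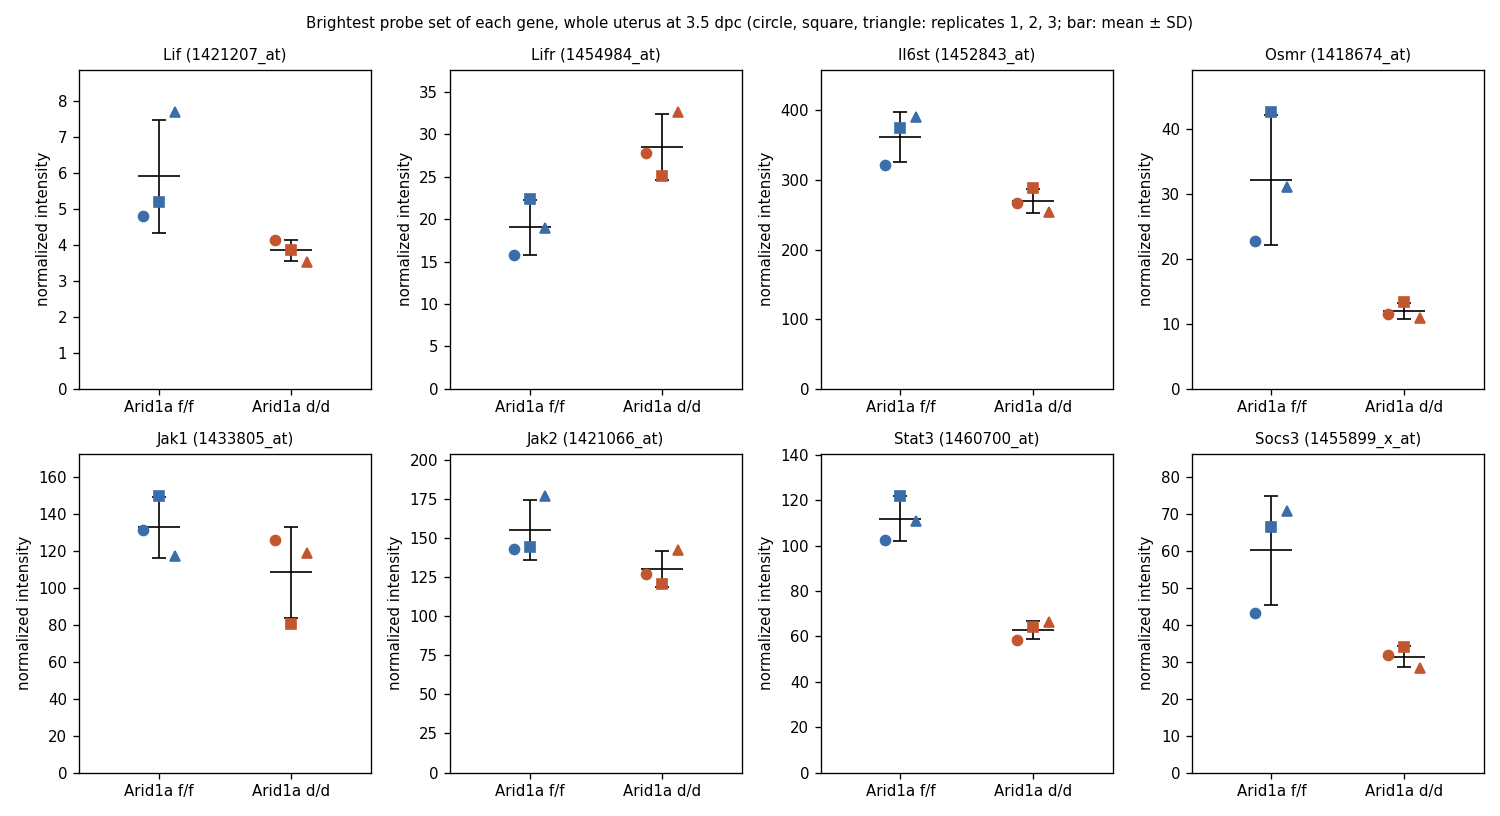
Normalized intensity (linear scale from 0) of the brightest probe set of each of 8 genes on 3 Arid1a f/f arrays (blue) and 3 Arid1a d/d arrays (orange), with the mean and SD. Stat3, Osmr and Socs3 fell with no overlap, Lif, Il6st and Jak2 lay lower without passing the test, and Lifr lay higher without passing it.

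Arid1a itself was lower in Arid1a d/d, as labelled. Arid1a (1448709_at) was 91.4 ± 10.9 (SD, n = 3) with Arid1a f/f and 54.0 ± 3.61 (SD, n = 3) with Arid1a d/d, a log2 fold change of -0.76, and its second probe set gave -0.61. Pgr, which carries the Cre, had a log2 fold change of 0.28 on its brightest probe set (1439527_at) and did not pass the test (limma adjusted p = 0.346). No pair of arrays was identical.

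Whole uterus mixes epithelium, glands, stroma, muscle, vessels and immune cells, and fewer cells of a type cannot be told apart from less RNA per cell. Endothelial markers were lower with the genes above: 9 of 10 fell, against 4.06% of all genes called lower. Among them were Vwf (log2 fold change -1.46), Cdh5 (-1.45) and Pecam1 (-1.33). The intensities of the list summed to 543 to 558 among Arid1a f/f arrays and to 238 to 289 among Arid1a d/d arrays. All 10 had every Arid1a d/d array below every Arid1a f/f array, against 16.0% of all genes. Leaving out replicate 2 or replicate 3 of Arid1a f/f, or adding an offset of 5, left 5 of the 10 past the test. Gland markers were lower too, with 3 of 6 called, namely Spink3 (listed as Spink1, -6.30), Ttr (-2.87) and Cxcl15 (-2.55). The gland list summed to 166 to 732 in Arid1a f/f and to 19.1 to 22.1 in Arid1a d/d. For all 6 every Arid1a d/d array lay below every Arid1a f/f array, against 16.0% of all genes. Prss29 was apart only by 2.75 on the first Arid1a f/f array and 2.74 on the first Arid1a d/d array. Prss28 read 2.46 on the first Arid1a f/f array and at most 2.12 in Arid1a d/d. These readings lay below the median of the table. Of the 6 gland markers, 4 were below the median of the table in Arid1a d/d (Spink3, Ttr, Prss28 and Prss29), and no marker was at 0. The lower gland markers numbered 5 without Arid1a f/f replicate 1 and 2 with an offset of 5. They numbered 4 without dim probe sets, and 4 with the trend and robust options of limma.

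In each of the other lists 1 marker passed the test, beside 4.06% of all genes called lower and 3.37% called higher. In the epithelial list Cdh1 rose, 1 of 10 markers (log2 fold change 0.92), with summed intensities of 1148 to 1236 in Arid1a f/f and 1200 to 2351 in Arid1a d/d. The sum of 2351 came from the second Arid1a d/d array, and that of the first lay within the Arid1a f/f range. Of the 10 epithelial markers 2 lay below 0. Stromal fibroblast markers had 1 of 10 lower, Dcn (-1.06), with sums of 10411 to 11575 and 8170 to 9683. Smooth muscle markers had 1 of 8 lower, Des (-0.64), with sums of 6268 to 7130 and 5777 to 6840. Leukocyte markers had 1 of 10 lower, Ptprc (-0.80), with sums of 472 to 708 and 388 to 483. Every Arid1a d/d array lay below every Arid1a f/f array for 5 of 10 stromal, 5 of 10 leukocyte and 3 of 8 smooth muscle markers. This held for 16.0% of all genes. For 4 of 10 epithelial markers every Arid1a d/d array lay above, against 13.4% of all genes, and for 0 below. Des and Ptprc each kept the call in 1 of 6 repeats that left out 1 array, Dcn in 4 and Cdh1 in 5. Without Arid1a f/f replicate 2 all 4 lists had 0 called, the smooth muscle and leukocyte lists kept theirs only without Arid1a d/d replicate 1 (then 2 and 1 called), the stromal list also lost its own without Arid1a d/d replicate 2, and the epithelial list had 2 called when replicate 1 or replicate 2 of Arid1a d/d was left out. The part of these markers in the results below was not tested.

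Lif, the ligand, was dim and did not pass the test. Its brighter probe set (1421207_at) read 4.81, 5.19 and 7.70 on the 3 Arid1a f/f arrays and 4.13, 3.86 and 3.53 on the 3 Arid1a d/d arrays. All Arid1a d/d arrays lay below all Arid1a f/f arrays, and the third Arid1a f/f array stood above the other two. The means were 5.90 ± 1.57 and 3.84 ± 0.300 (SD, n = 3), and the log2 fold change was -0.59 (SE 0.17, 95% interval -0.98 to -0.20 before any adjustment, limma adjusted p = 0.0983). Without Arid1a f/f replicate 3 it was -0.38. The other Lif probe set (1450160_at) lay below the median of the table in both genotypes and gave -0.04 (limma adjusted p = 0.924). Foxa2, the transcription factor of the glands where LIF is made, read 7.04, 8.54 and 15.3 in Arid1a f/f and 5.30, 4.43 and 4.39 in Arid1a d/d. It had the same order of groups as Lif, with the third Arid1a f/f array again highest. Its log2 fold change of -1.05 did not pass the test (limma adjusted p = 0.0512). Among the other gland markers, Ttr and Cxcl15 were also highest on the third Arid1a f/f array. Spink3, Prss28 and Prss29 were instead highest on the second. Any link of Foxa2 to Lif was not tested.

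Osmr had the largest log2 fold change among the brightest probe sets of the 8 genes. On probe set 1418674_at the Arid1a f/f arrays read 22.7, 42.7 and 31.1, and the Arid1a d/d arrays read 11.5, 13.4 and 10.9. The groups did not overlap, and the Arid1a d/d arrays lay close together while the Arid1a f/f arrays spread over a wider range. From 32.2 ± 10.0 to 11.9 ± 1.28 (SD, n = 3), Osmr fell with a log2 fold change of -1.39 (SE 0.21, limma adjusted p = 0.0109), which is 2.62-fold lower. It passed the test in 6 of 6 repeats that left out 1 array, with log2 fold changes from -1.62 to -1.16. Its other probe sets, 1418675_at and 1459217_at, gave 0.02 and 0.05 and lay below the median of the table in both genotypes. Averaging all 3 probe sets gave -0.44, which did not pass the test (limma adjusted p = 0.0594), so the call rests on the 1 bright probe set.

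Il6st, which encodes the shared chain gp130, lay lower on all 4 of its probe sets and passed the test on 1. That probe set (1460295_s_at) read 11.2, 12.4 and 12.0 in Arid1a f/f uteri and 8.36, 8.56 and 6.62 in Arid1a d/d uteri, with no overlap. Its log2 fold change was -0.60 (SE 0.12, limma adjusted p = 0.0306). The call was lost in 4 of 6 repeats that left out 1 array, at -0.48 without Arid1a d/d replicate 3 and from -0.64 to -0.57 without any 1 of the Arid1a f/f arrays. The ending _s_at marks a probe set that can detect several transcripts. With an offset of 5 added before the logarithm the log2 fold change was -0.39 and the call was kept. Brightest for the gene was 1452843_at, at 322, 375 and 391 in Arid1a f/f and 267, 288 and 254 in Arid1a d/d. Here too the groups did not overlap, but the log2 fold change of -0.42 (SE 0.11) did not pass the test (limma adjusted p = 0.0700). It passed with the trend and robust options of limma, at an adjusted p of 0.0234. The remaining probe sets, 1437303_at and 1421239_at, gave -0.08 and -0.28 with overlapping groups.

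Lifr, the chain that binds LIF, was the only one of the 8 genes with a higher mean in Arid1a d/d by its brightest probe set. On 1454984_at it read 15.8, 22.4 and 19.0 in Arid1a f/f and 27.8, 25.1 and 32.7 in Arid1a d/d uteri. Every Arid1a d/d array was above every Arid1a f/f array. The means of 19.0 ± 3.28 and 28.5 ± 3.85 (SD, n = 3) gave a log2 fold change of 0.59 (SE 0.15), which did not pass the test (limma adjusted p = 0.0655). Both other Lifr probe sets lay below the median of the table in both genotypes and gave 0.09 and -0.12.

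The kinase genes did not pass the test on any probe set. For Jak1, 1433805_at read 132, 150.0 and 117 in Arid1a f/f and 126, 80.3 and 119 in Arid1a d/d, so that the groups overlapped and the second Arid1a d/d array was lowest. Its log2 fold change was -0.31 (limma adjusted p = 0.414), and 1433803_at gave -0.43 (limma adjusted p = 0.224). The last Jak1 probe set went the other way. On 1433804_at the Arid1a f/f arrays read 10.3, 7.58 and 4.12 and the Arid1a d/d arrays 26.1, 13.1 and 13.0, with no overlap and a log2 fold change of 1.27 (SE 0.36, limma adjusted p = 0.0869). With the replicate number as a block that probe set passed the test (limma adjusted p = 0.0117). Its difference from the brightest Jak1 probe set was 1.58 on the log2 scale, with an exact permutation p of 0.1, the smallest that 3 arrays against 3 allow, and 0.133 after Benjamini-Hochberg adjustment over 8 such pairs. What sets the Jak1 probe sets apart was not tested.

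Jak2 lay lower on both of its probe sets. On 1421066_at it read 143, 145 and 177 in Arid1a f/f and 127, 121 and 143 in Arid1a d/d, where the highest Arid1a d/d array came just under the lowest Arid1a f/f array. The log2 fold change was -0.25 (SE 0.12, limma adjusted p = 0.328). The dimmer 1421065_at gave -0.49 with overlapping groups (limma adjusted p = 0.193, and 0.0493 with the replicate number as a block).

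Stat3, the transcription factor on which the pathway converges, fell. The Arid1a f/f arrays read 102, 122 and 111 on its brightest probe set (1460700_at), and the Arid1a d/d arrays read 58.5, 63.9 and 66.4. Each group was tight and the gap between them was wider than the spread within either. The means were 112 ± 9.80 and 62.9 ± 4.01 (SD, n = 3), a log2 fold change of -0.83 (SE 0.11, limma adjusted p = 0.00648) or 1.77-fold lower. It passed the test in 6 of 6 repeats without 1 array, from -0.89 to -0.76. The mean of all Stat3 probe sets also passed, at -0.52 (limma adjusted p = 0.0302).

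The other 3 Stat3 probe sets were lower but did not pass the test. On 1426587_a_at the values were 97.2, 149 and 77.9 in Arid1a f/f and 66.2, 66.3 and 68.4 in Arid1a d/d, without overlap and with a wide spread among the controls. That log2 fold change was -0.64 (limma adjusted p = 0.132), and -0.38 without Arid1a f/f replicate 2. The dim probe sets 1459961_a_at and 1424272_at gave -0.45 and -0.16. Of these, 1424272_at differed from the brightest by 0.66 on the log2 scale, again at the smallest exact permutation p of 0.1.

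Socs3, the STAT3-induced inhibitor that closes the loop, fell on all 3 of its probe sets. The brightest (1455899_x_at) read 43.2, 66.5 and 70.8 in Arid1a f/f and 31.9, 33.9 and 28.3 in Arid1a d/d. The groups did not overlap, and the first Arid1a f/f array lay nearest to the Arid1a d/d arrays, as it did on all 3 probe sets. The means were 60.2 ± 14.9 and 31.3 ± 2.84 (SD, n = 3), with a log2 fold change of -0.91 (SE 0.18, limma adjusted p = 0.0289). On 1416576_at the values were 10.7, 17.6 and 18.7 against 7.20, 6.83 and 7.17, a log2 fold change of -1.11 (SE 0.20, limma adjusted p = 0.0189). On 1456212_x_at they were 18.1, 27.2 and 26.0 against 15.5, 14.4 and 13.8, a log2 fold change of -0.68 (SE 0.16, limma adjusted p = 0.0434). The direction was the same on all 3, and the 3 probe sets share the same RNA and are not replicates.

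The Socs3 calls were less stable than those of Stat3. Both _x_at probe sets, which can pick up related sequences, stayed past the test without Arid1a f/f replicate 1, at -1.13 and -0.87, and lost it without any other array, at -0.97 to -0.78 and -0.73 to -0.58. The call of 1416576_at held when the first array of either genotype was left out, and was lost without any other, at -1.12 to -0.96. An offset of 5 before the logarithm ended the call of all 3, with limma adjusted p from 0.0622 to 0.0848, and a replicate block ended that of 1456212_x_at (limma adjusted p = 0.0573).

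**Figure D2:**
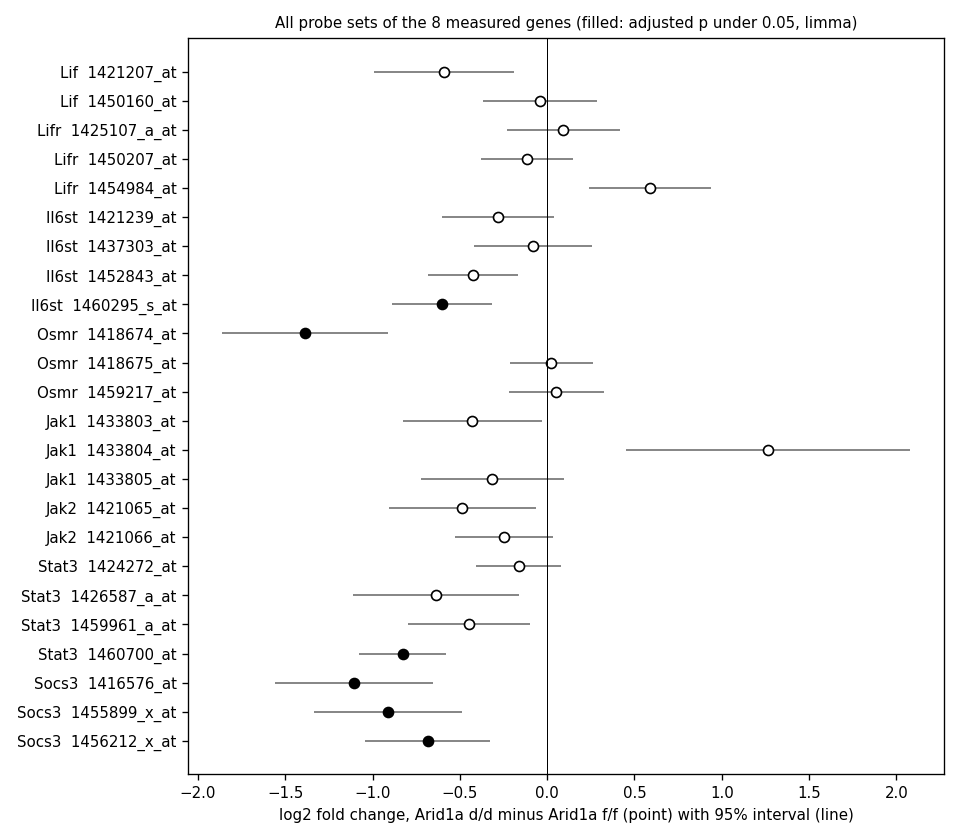
Log2 fold change (Arid1a d/d over Arid1a f/f) of all 24 probe sets with 95% intervals before adjustment, grouped by gene, with those past the test filled. Of the 24, 19 lay below 0 and all 6 past the test were lower, 3 of them for Socs3 and 1 each for Osmr, Il6st and Stat3. The median over all 45037 probe sets was -0.0076.

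The rest of the pathway was followed through 6 lists by role, of which 56 of 60 genes were measured. Of the 56, 2 rose (3.57%, against 3.37% of all genes) and 5 fell (8.93%, against 4.06%), with a median log2 fold change of -0.11, and all 7 were on the list of STAT3-responsive genes. Among the 36 other ligands, receptors, kinases, STATs, adaptors and inhibitors, limma called 0 after adjustment, and at an unadjusted p under 0.05 there were 6 lower, against 13.5% of all genes, and 1 higher, against 11.4%.

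Among the other ligands of gp130 receptors, 0 of 5 measured genes passed, and the median was -0.042. Il6 gave -0.16 at an intensity below the median of the table, and Ctf1, which encodes cardiotrophin 1, gave -0.09. In the receptor list 0 of 4 passed, with -0.54 for the interleukin 6 receptor chain Il6ra (limma adjusted p = 0.125) and 0.16 for Il31ra. All 7 of the other measured JAK and STAT genes lay below 0, beside 9742 of all 18193 genes, and 0 passed, with a median of -0.15. Lowest in p were the kinase gene Tyk2 at -0.31 and Stat5b at -0.29 (limma adjusted p = 0.139 and 0.212).

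Of the adaptors that link gp130 to other cascades, 0 of 6 passed, with a median of -0.19, -0.30 for Gab2 and -0.31 for Gab1. Of the inhibitors other than Socs3, 0 of 14 passed, with a median of -0.077. Pias1, which encodes an inhibitor of activated STATs, gave -0.37 (limma adjusted p = 0.0910). Socs1, a relative of Socs3, gave -0.29 at an intensity below the median of the table in Arid1a d/d (limma adjusted p = 0.153).

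**Figure D3:**
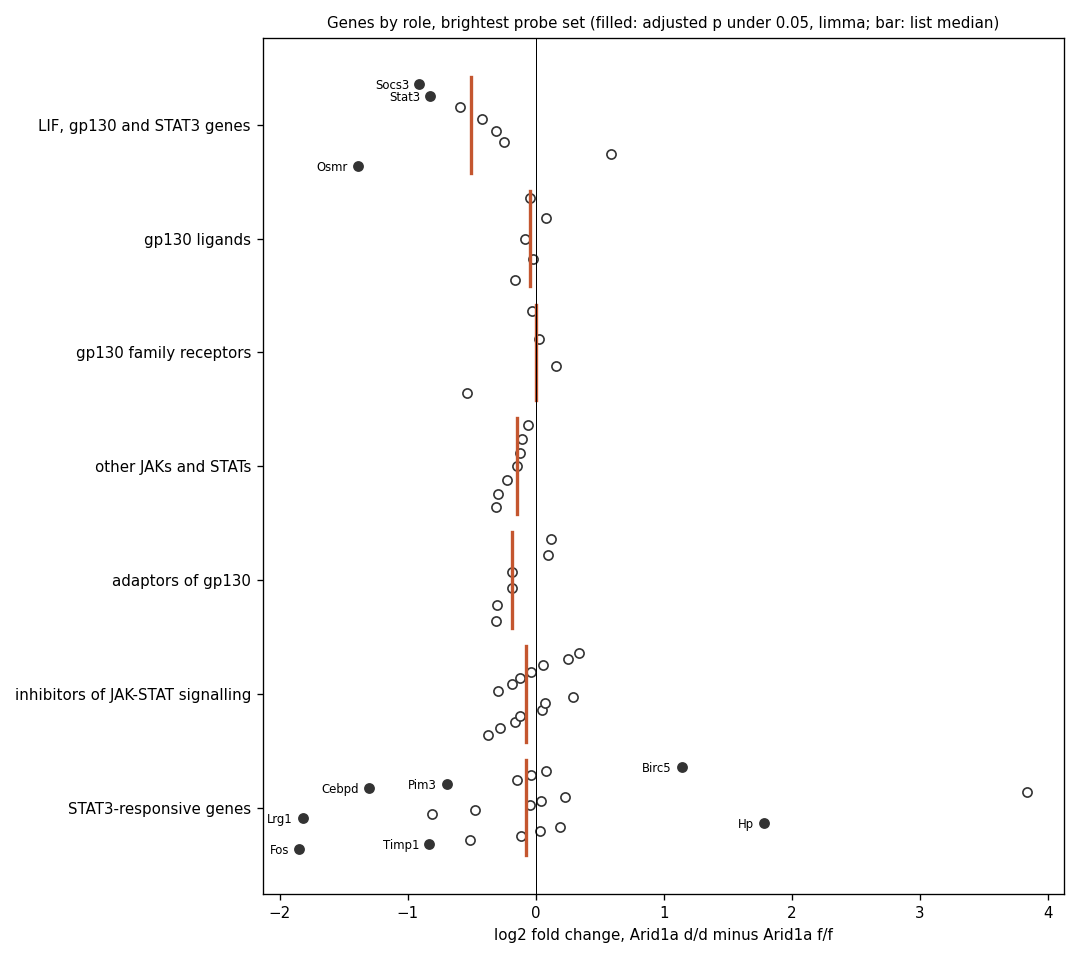
Log2 fold change (Arid1a d/d over Arid1a f/f) of the brightest probe set of each gene, arranged by role, with genes past the test filled and named and the list median as a vertical bar. Filled points appear only in the top list (Osmr, Stat3 and Socs3) and among the STAT3-responsive genes.

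Genes known to respond to STAT3 moved in both directions. Of 20 measured, 5 fell, against 4.06% of all genes, 2 rose, against 3.37%, and 13 did not pass the test. The list median was -0.080, beside -0.018 over all genes. Lrg1, a secreted glycoprotein of the acute phase, read 18.2, 21.6 and 25.1 in Arid1a f/f and 7.24, 5.87 and 5.27 in Arid1a d/d. Its log2 fold change was -1.82 (limma adjusted p = 0.00176). Lrg1 is also made by endothelial cells, whose markers were lower on the same arrays, and the part of that in its fall was not tested. Cebpd, a transcription factor of the C/EBP family, read 80.1, 130.0 and 127 against 50.7, 42.7 and 40.5, a log2 fold change of -1.31 (limma adjusted p = 0.00974). Neither gene had overlapping groups.

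Timp1, an inhibitor of matrix metalloproteinases, was even across the arrays of each genotype, at 29.2, 26.7 and 29.7 in Arid1a f/f and 16.8, 15.4 and 15.7 in Arid1a d/d. It fell with a log2 fold change of -0.83 (limma adjusted p = 0.00437). Pim3, a survival kinase, fell by 0.70 on the log2 scale (limma adjusted p = 0.0114). Lrg1, Cebpd, Timp1 and Pim3 passed the test in 6 of 6 repeats without 1 array.

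Fos, an immediate early transcription factor gene that many signals besides STAT3 induce, had a log2 fold change of -1.85 (limma adjusted p = 0.0296). Its values were 43.8, 61.5 and 133 in Arid1a f/f and 19.4, 26.9 and 14.7 in Arid1a d/d. The third Arid1a f/f array, highest for Lif too, stood well above the others. Its call was kept when Arid1a f/f replicate 1 was left out, and when Arid1a d/d replicate 2 was, and was lost without any of the other arrays, at -1.95 to -1.40.

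Birc5 and Hp rose. Birc5 encodes survivin, which acts in mitosis as well as in survival, and read 46.0, 25.5 and 30.2 in Arid1a f/f and 60.8, 73.6 and 85.3 in Arid1a d/d (log2 fold change 1.14, limma adjusted p = 0.0231). Hp encodes haptoglobin, an acute phase protein, and read 9.42, 5.38 and 8.63 against 36.2, 14.3 and 34.5 (log2 fold change 1.78, limma adjusted p = 0.0271). The groups were apart for both, and the second Arid1a d/d array was the lowest of its group for Hp. Birc5 stayed past the test when the first array of either genotype was left out, Hp without Arid1a d/d replicate 2, and each lost its call without any other array, at 0.96 to 1.13 for Birc5 and 1.54 to 1.94 for Hp. Fos, Birc5 and Hp each lost the call with an offset of 5, and Fos also lost it with the trend and robust options of limma (adjusted p = 0.0836).

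Lcn2, the gene of the iron-sequestering protein lipocalin 2, did not pass the test although its log2 fold change was 3.84 (limma adjusted p = 0.184). It read 4.39, 3.70 and 2.84 in Arid1a f/f and 51.2, 623 and 4.26 in Arid1a d/d. The third Arid1a d/d array lay within the control range while the second was far above every other array.

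**Figure D4:**
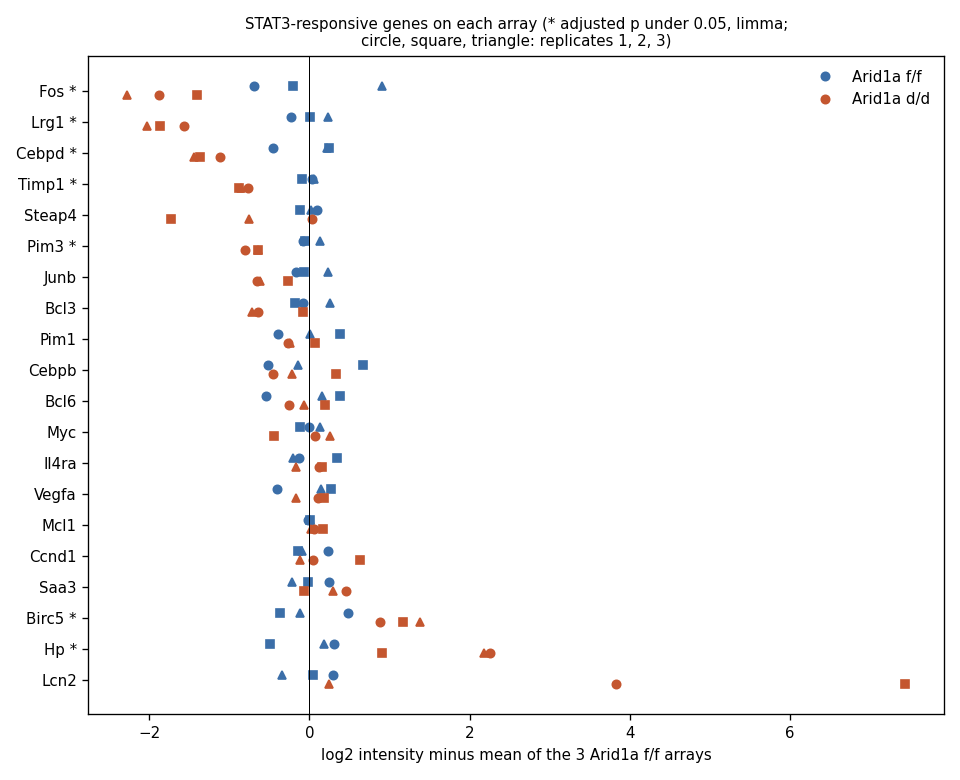
Log2 intensity of 20 STAT3-responsive genes on each of 3 Arid1a f/f arrays (blue) and 3 Arid1a d/d arrays (orange), less the mean of the Arid1a f/f arrays, with an asterisk at the 7 past the test. The Arid1a d/d arrays of Fos, Lrg1, Cebpd, Timp1 and Pim3 lie left of the Arid1a f/f arrays, those of Birc5 and Hp lie right, and Lcn2 has the widest spread.

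Of the 5 STAT3-responsive genes that fell, 4 had a start in the promoter table, and 0 of those 4 held TTCNNNGAA or TTCCNGGAA in the 250 bases before it. The Socs3 stretch printed above was thus the only match to TTCNNNGAA among the genes of the pathway that fell and had a start in the table.

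The genes with the most similar profiles over the 6 arrays were found by the root mean square distance between log2 values, each centred on its mean. For Stat3 these were Sema7a (0.0443), Itgax (0.0481) and Efna1 (0.0717), beside a median distance of 0.436 over all genes. For Socs3 they were Ppfibp2 (0.0811), Bmf (0.124) and Trhde (0.126), beside a median of 0.525. For Lif they were Metap1d (0.0746), Cdc14a (0.0762) and Ttc39b (0.0775), beside a median of 0.388. The log2 fold changes of these genes lay from -0.86 to -0.70 for those near Stat3, from -1.07 to -0.84 for those near Socs3 and from -0.70 to -0.45 for those near Lif. The short distances follow from taking the nearest genes. The similar log2 fold changes follow too, since the distance takes in the difference between genotypes.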

How the data were processed

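Whole mouse uteri at 3.5 dpc were measured on 6 Affymetrix arrays, 3 per genotype. By the methods, the authors derived the deposited intensity values by RMA with global scaling to a common trimmed mean. These intensity values are linear, with no detection calls, so log2 was taken with no offset and no filter. The design had allowed for either scale. Precision is limited by the number of arrays.

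Gene names came from the platform's annotation: 34945 of 45037 probe sets name 1 gene, 932 several and 9160 are unnamed here. RefSeq tables of GRCm38.p6 gave promoters and gene spans, and the array files name no build. The Arid1a d/d and Arid1a f/f arrays were set against each other by lmFit and eBayes of limma 3.58.1 (R 4.3.3), two-sided with Benjamini-Hochberg adjustment over the whole table, and the fit was tested on simulated data. The probe set with the highest mean log2 value stood for a gene. Pathway genes with no probe set of their own in the annotation were not analysed here.

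The genes, lists and tests were chosen with earlier results of these data known, Osmr, Socs3, Stat3, Lif, Il6st, Jak1, Fos, Lrg1 and Lcn2 among them. Named were all 9 genes, list genes past the test (up to 6 by size, or the 2 with the smallest p where none passed), up to 3 past the test in each marker list, the 3 nearest profiles of Lif, Stat3 and Socs3, Arid1a and Pgr. Outside this rule stand Pim3, Lcn2, Foxa2, Prss28 and Prss29, named with their values already seen. The alternatives were quantile normalization, median centring, a filter on dim probe sets, an offset of 5, trend and robust eBayes, the methods' t-test, array weights, a replicate block, no _s_at or _x_at probe sets, leaving out each array, other thresholds and other probe sets per gene.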

Additional observations from a re-analysis of the deposited data

How the results depend on the processing

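Quantile normalization, median centring and array weights kept the sign of all 24 probe sets, and the 6 called ones kept it in every fit run. The methods' t-test with Benjamini-Hochberg adjustment called 0 probe sets higher and 0 lower in the whole table, and so 0 among the 24, the 8 genes and the 56 pathway genes. Unadjusted it called 3386 higher and 3316 lower, among them 1 probe set and 1 gene of the 8 higher, 7 probe sets and 4 genes of the 8 lower, and 11 pathway genes lower. An offset of 5 left 3 of the 24 probe sets lower and 0 pathway genes higher. Leaving out _s_at and _x_at probe sets took out the called one of Il6st and both _x_at ones of Socs3. The other 3 called probe sets stayed lower. At an adjusted p under 0.10, limma called 1925 probe sets higher and 1814 lower, 2 of the 24 probe sets and 1 of the 8 genes higher, and 8 of the 24 and 5 of the 8 lower. At least 1.5-fold with no test gave 1327 probe sets higher and 1206 lower, 2 of the 24 higher and 8 lower, and 1 of the 8 genes higher and 4 lower. Leaving out each array in turn gave 241 to 941 probe sets higher and 337 to 878 lower, 2 to 5 of the 24 lower, 2 to 3 of the 8 genes lower, and 0 to 1 pathway genes higher and 4 to 6 lower. Counting any probe set, 4 of the 8 genes were lower, and averaging probe sets, 2.

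The labels do not say whether the replicate numbers pair the samples. Deviations of same-numbered arrays correlated from -0.00364 to 0.143 over probe sets, and those of differently numbered arrays from -0.119 to 0.0649. With 3 arrays per genotype these values cannot decide whether the samples were paired. With the replicate number as a block, 1126 probe sets were higher and 1039 lower, 1 of the 24 was higher, 6 were lower, and 3 of the 8 genes and 6 pathway genes were lower. The cause of these shifts was not tested. Lif lay near the median of the table, and with no detection calls its signal over background could not be measured.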
